A study of Mus musculus with 36 samples.

Results

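The comparison covers striatum from mice that ate PLX5622, which blocks CSF1R, a receptor that microglia need to survive. It sets 2 libraries of MSA mice against 2 libraries of control mice, out of 36 libraries in the series, and was described over the 14872 genes that passed a low-count filter, out of 24940 in the count table. MSA mice are the MBP29-hα-syn line, in which the myelin basic protein promoter, active in oligodendrocytes, drives the transgene of a model of multiple system atrophy. Controls of the bulk tissue are wild type by the protocol. All mice were male. The mice used for bulk tissue began the diet at 4 weeks of age and stayed on it for 12 weeks. They ate PLX5622 chow (1200 mg/kg) or standard AIN-76A chow, called placebo here. The groups were formed by library title. The 2 control PLX5622 libraries also carry a no-treatment tag, which goes against their title and group. Placebo striatum of 2 control and 3 MSA libraries was used for the same genotype comparison without the inhibitor, and it shares no library with the main comparison. As a reference for expression in microglia, 3 libraries of microglia sorted from the forebrain at 16 weeks of age were used. Their labels call them controls and give MBP29 het, whereas the protocol names wild-type mice. The labels do not say whether libraries came from separate animals, so the p-values describe spread between samples that may be technical.

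Oligodendrocytes wrap axons in myelin, a membrane built from proteins such as MBP and MOG and rich in cholesterol and galactolipids. They arise from precursors that carry PDGFRA, pass through a short premyelinating stage, and then express a set of late genes that differs between brain regions. Microglia, the resident macrophages of the brain, clear debris, and take part in the upkeep of myelin. They are marked by CSF1R, the fractalkine receptor CX3CR1, the purinergic receptor P2RY12, TMEM119 and the subunits of complement C1q.

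The question was what the transgene changed in striatum while microglia were being depleted, including which oligodendrocyte genes were low in that state. With PLX5622, 33 of 14872 genes differed between genotypes at an adjusted p under 0.05 (edgeR quasi-likelihood F test), which is 0.222% of the genes tested. Of these, 5 were lower in MSA striatum (0.0336%) and 28 were higher (0.188%). The lower genes were Klk6, Anln, Gsn, Itgb4 and Abca8a, and 3 of them, Klk6, Anln and Gsn, are on the list of mature oligodendrocyte genes. Of the higher genes 17 are on the list of homeostatic microglia genes. Without adjustment 1631 genes (11%) had a p under 0.05. With 2 libraries a side, 22.7% of all genes had both MSA libraries above both control libraries and 20.8% had both below.

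**Figure D1:**
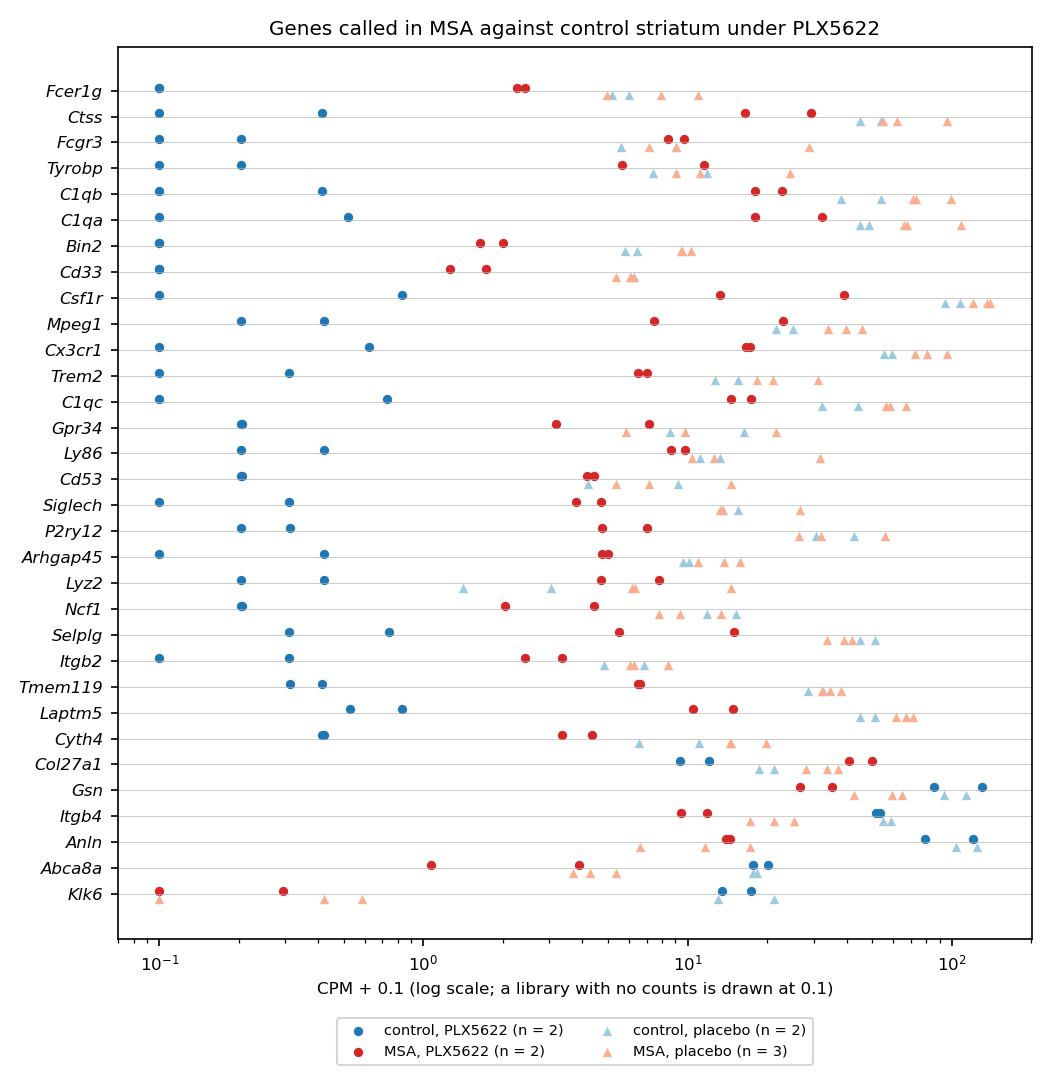
Genes that differed between genotypes with PLX5622 (32 of the 33), in CPM + 0.1 on a log axis, with 1 point for each of the 9 striatum libraries (circles for PLX5622, triangles for placebo; blue for control, red for MSA). In the microglial genes the control PLX5622 libraries lie at the left, the MSA PLX5622 libraries in between and placebo libraries mostly at the right, while in Klk6, Anln, Gsn, Itgb4 and Abca8a both MSA groups lie to the left of both control groups.

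The bases just before the start site are printed for 4 of the 5 lower genes, because their products differ in function while their transcripts were low together. They come from RefSeq on GRCm38.p6 (mm10), are the 250 bases upstream of the annotated start, and read 5′ to 3′ on the gene's own strand. Capitals mark ACAAAG or ACAATG, the letters bound by SOX-type factors, and CAGCTG, an E-box, searched on both strands. They lie at chr7:43824294-43824543 (Klk6, plus strand), chr9:22389207-22389456 (Anln, minus strand), chr2:35282130-35282379 (Gsn, plus strand) and chr11:110095938-110096187 (Abca8a, minus strand).

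Klk6: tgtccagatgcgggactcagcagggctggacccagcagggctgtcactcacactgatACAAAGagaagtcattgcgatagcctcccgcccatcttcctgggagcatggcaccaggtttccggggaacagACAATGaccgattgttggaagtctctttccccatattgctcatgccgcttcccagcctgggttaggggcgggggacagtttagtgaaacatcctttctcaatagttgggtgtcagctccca
Anln: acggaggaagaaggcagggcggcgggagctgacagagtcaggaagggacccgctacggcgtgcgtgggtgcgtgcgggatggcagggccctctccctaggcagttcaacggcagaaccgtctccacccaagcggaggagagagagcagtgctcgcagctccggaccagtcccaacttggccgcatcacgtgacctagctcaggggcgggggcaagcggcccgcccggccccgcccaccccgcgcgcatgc
Gsn: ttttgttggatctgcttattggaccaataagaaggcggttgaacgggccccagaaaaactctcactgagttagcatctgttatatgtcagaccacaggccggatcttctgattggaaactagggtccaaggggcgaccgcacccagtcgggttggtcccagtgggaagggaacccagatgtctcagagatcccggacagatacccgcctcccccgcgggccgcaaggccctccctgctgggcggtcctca
Abca8a: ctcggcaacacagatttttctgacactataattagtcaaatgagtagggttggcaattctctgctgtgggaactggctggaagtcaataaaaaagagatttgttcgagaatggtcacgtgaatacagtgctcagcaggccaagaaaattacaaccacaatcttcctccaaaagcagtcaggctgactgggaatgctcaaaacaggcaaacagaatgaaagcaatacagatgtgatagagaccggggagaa

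Klk6 held 2 SOX-type matches, which began 193 and 121 bases before the start, and the other 3 windows held none of these letters. Of 11491 tested genes with a window, 16.8% held a SOX-type match and 12.2% an E-box. Among the mature oligodendrocyte genes with a window 8 of 25 held a SOX-type match and 5 of 25 an E-box, and among the structural myelin genes 7 of 13 and 0 of 13. A match is a run of letters and was not tested as a binding site.

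Klk6 showed the largest difference among the lower genes. It encodes kallikrein 6, a secreted serine protease made by mature oligodendrocytes (chromosome 7, 43824544 to 43832027, plus strand, NM_001164697). Its level, in counts per 1e+06 assigned counts (CPM), was 17.3 and 13.4 in the control PLX5622 libraries and 0.193 and 0 in the MSA PLX5622 libraries. The 2 groups did not overlap, and the MSA value rests on 1 count in all. The counts were 193 times lower in MSA striatum (95% counting interval 34.4 to 7648), with an adjusted p of 0.00344 in the edgeR test. On placebo Klk6 stood at 12.9 and 21.1 CPM in controls and at 0.488, 0.32 and 0 CPM in MSA mice, so the transcript was near 0 in MSA striatum under both diets.

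Anln encodes anillin, an actin- and septin-binding scaffold protein that is part of the septin assemblies of myelin (chromosome 9, 22331214 to 22389206, minus strand, NM_028390). It stood at 121 and 79.3 CPM in control and at 13.9 and 14.4 CPM in MSA PLX5622 libraries. Both MSA libraries lay far below both controls, and the log2 difference was -2.81 ± 0.37 (SE of the fit, adjusted p = 0.00614). On placebo the difference was -3.29 ± 0.32 (adjusted p = 0.00489), with 104 and 125 CPM in controls against 17.1, 11.5 and 6.48 CPM in MSA mice.

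Itgb4 encodes integrin β4, a receptor subunit for laminin (chromosome 11, 115974725 to 116008411, plus strand, NM_001005608). It was on none of the lists. Its 2 control libraries stood close together at 53.5 and 51.6 CPM, and the MSA libraries at 11.8 and 9.36 CPM. The log2 difference of -2.32 ± 0.25 had the smallest p of the 5 (adjusted p = 0.00172). On placebo it was -1.41 ± 0.21 with an adjusted p of 0.0619, from 59 and 54.9 CPM in controls and 17.1, 25.3 and 21.1 CPM in MSA mice.

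Abca8a encodes a lipid transporter of the ABC family (chromosome 11, 110025634 to 110095937, minus strand, NM_153145). It went from 20 and 17.5 CPM in controls to 0.966 and 3.8 CPM in MSA mice with PLX5622, a log2 difference of -2.90 ± 0.47 (adjusted p = 0.0281). The placebo difference was -2.02 ± 0.39 and was not called (adjusted p = 0.266), although the 3 MSA libraries (3.58, 4.16 and 5.27 CPM) lay below both controls (18.2 and 17.6 CPM). Reads of Abca8a may be shared with its near copy Abca8b, so its count is uncertain.

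Gsn encodes gelsolin, which severs and caps actin filaments (chromosome 2, 35282380 to 35307902, plus strand, NM_146120). Control libraries stood at 85.8 and 130 CPM and MSA libraries at 26.5 and 35.1 CPM with PLX5622. The groups did not overlap and the log2 difference was -1.80 ± 0.29 (adjusted p = 0.0258). On placebo the values were 93.2 and 113 CPM in controls and 42.6, 65 and 59.3 CPM in MSA mice, a difference of -0.88 ± 0.25 that was not called (adjusted p = 0.873).

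The difference between diets in the size of the genotype difference was tested with a genotype by diet interaction term, which called 0 of these 5 genes, among 13 called in all (0.0874%), and the adjusted p of the 5 ran from 0.802 to 0.840. The interaction was -1.34 ± 1.43 for Klk6, 0.47 ± 0.48 for Anln, -0.90 ± 0.33 for Itgb4, -0.88 ± 0.61 for Abca8a and -0.92 ± 0.38 for Gsn on the log2 scale. The test therefore did not tell a larger or smaller difference with PLX5622 apart from an equal one for any of the 5. The calls on Klk6, Anln, Gsn and Abca8a depended on single libraries. That on Itgb4 did not, and its fitted log2 difference ran from -2.48 to -2.15 when single PLX5622 libraries were left out. Without MSA PLX5622 library 2 the adjusted p was 0.131 for Anln, 0.347 for Gsn and 0.11 for Abca8a, while Itgb4 (0.0221) and Klk6 (0.0468) stayed called, and Klk6, Anln and Gsn were lost without MSA PLX5622 library 3. Abca8a was also lost without either control PLX5622 library and Gsn without control PLX5622 library 2. Without MSA PLX5622 library 2 or 3 the fitted log2 difference of Klk6 was -9.98 or -6.19 and that of Abca8a -2.30 or -4.25.

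**Figure D2:**
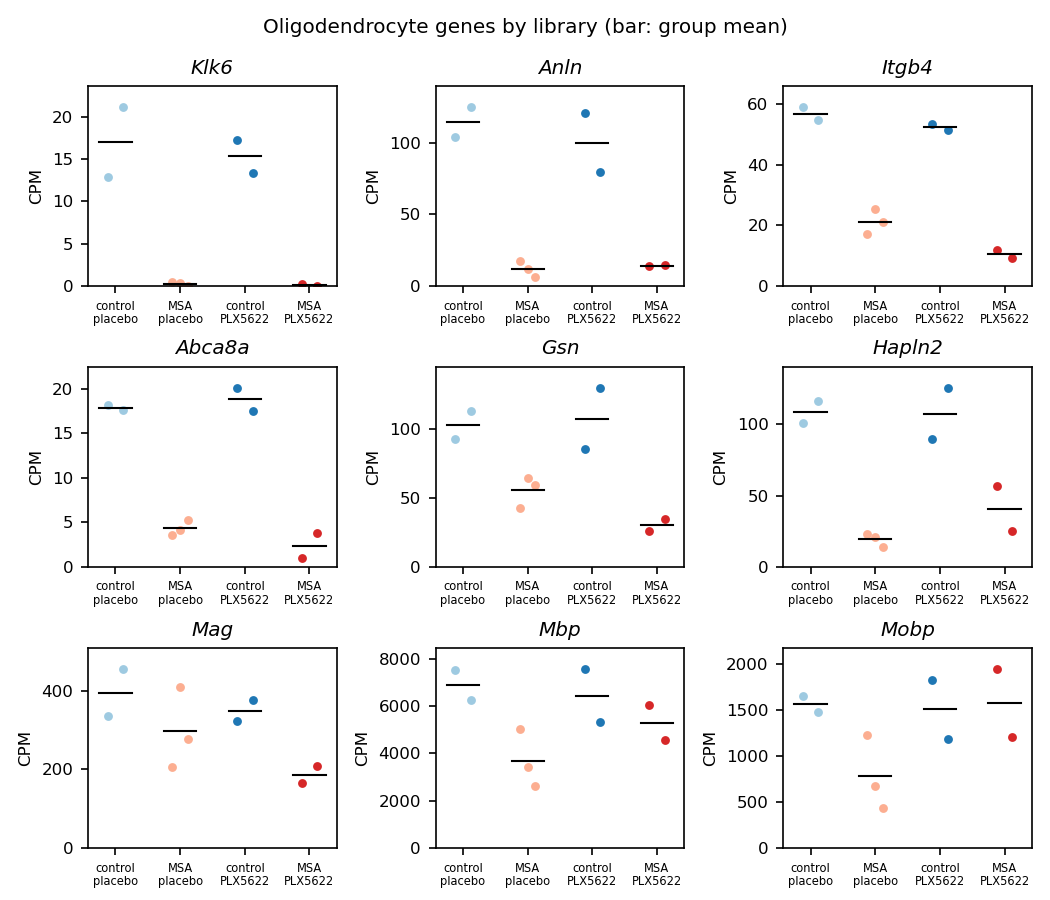
CPM of 9 genes in each striatum library (1 point per library; bars are group means; each vertical axis starts at 0). Klk6, Anln, Itgb4, Abca8a and Gsn were low in MSA libraries under both diets, while Mbp and Mobp of the PLX5622 groups overlapped.

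On placebo 4 genes were called lower in MSA striatum (0.0269%), and all 4 are mature oligodendrocyte genes: Klk6, Anln, Hapln2 and Carns1. Klk6 and Anln were thus called under both diets, which is 2 of 33 calls with PLX5622 (6.06%) and 2 of 5 calls on placebo (40%). Hapln2, which encodes a protein that links hyaluronan to the matrix at nodes of Ranvier, stood at 89.8 and 125 CPM in control and 56.4 and 25.4 CPM in MSA PLX5622 libraries. Its log2 difference was -1.40 ± 0.35 with PLX5622 (adjusted p = 0.307) and -2.46 ± 0.32 on placebo (adjusted p = 0.0304). Carns1, the carnosine synthase, stood at 39.9 and 30 CPM in control and 21.4 and 17.2 CPM in MSA mice with PLX5622 (-0.85 ± 0.24, adjusted p = 0.429). Its placebo difference was -1.53 ± 0.22 (adjusted p = 0.0413). For both genes the groups did not overlap under either diet, and the interaction was not called (1.06 ± 0.47 and 0.68 ± 0.33).

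Across the mature oligodendrocyte list, all 34 genes were tested, 3 were called lower and 0 higher with PLX5622, and the median log2 difference was -0.41, against 0.01 over all genes. The members ran from -7.31 for Klk6 to 4.16 for Opn4, whose level was under 1 TPM in each PLX5622 library and which was not called. Of the 34 genes 26 were negative, and 16 had both MSA libraries below both controls, against 20.8% of all genes. In 3 of the 34 both lay above. A lean of this size with PLX5622 was not particular to this list. Striatal interneuron genes had a median of -0.50, with 11 of 19 below in this way and 4 above. Genes of nodes and axon-glia contact had a median of -0.37, with 13 of 22 below and 1 above. On placebo the medians of these lists were 0.06 and 0.07, against -0.51 for mature oligodendrocyte genes. Under both diets the MSA libraries lay below every control library of the same diet in 12 of 34 genes (35.3%), against 348 of 14872 genes tested (2.34%). Those 12 were Klk6, Anln, Gsn, Hapln2, Carns1, Apod, Fa2h, Ndrg1, Trf, Ugt8a, Tmem125 and Tmem88b. The list was chosen with earlier results of these data known, so this share describes it and is no independent support.

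Of the 12, 5 are described here, chosen after their values were seen, and none of them was called with PLX5622. Fa2h, the hydroxylase that makes the 2-hydroxy fatty acids of myelin galactolipids, was at 117 and 101 CPM in control and 47.7 and 55.2 CPM in MSA libraries (-1.08 ± 0.24, adjusted p = 0.205). Ugt8a, the galactosyltransferase of the same pathway, was at 125 and 59.8 CPM against 42.7 and 52.2 CPM (-0.95 ± 0.35, adjusted p = 0.44). Apod, a lipid-carrying lipocalin, was at 245 and 244 CPM against 105 and 135 CPM (-1.02 ± 0.28, adjusted p = 0.404). Trf, the iron carrier transferrin, was at 498 and 450 CPM against 197 and 274 CPM (-1.01 ± 0.29, adjusted p = 0.436). Ndrg1, a myelin-associated protein of the cytoplasm, was at 199 and 251 CPM against 101 and 120 CPM (-1.02 ± 0.27, adjusted p = 0.344). In each of these 5 genes both MSA libraries lay below both controls, but the differences did not pass the test. The list of sphingolipid and very long fatty acid synthesis had 0 of 19 members called (2 lower at an unadjusted p under 0.05), with 18 negative and a median log2 difference of -0.23. Cholesterol transport had 0 of 14 called, with 7 positive, 7 negative and a median of -0.01.

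A few mature oligodendrocyte genes leaned the other way. Il33, an alarmin cytokine stored in oligodendrocyte nuclei, was at 67 and 48.6 CPM in control and at 88.7 and 115 CPM in MSA libraries with PLX5622 (0.82 ± 0.27, adjusted p = 0.44). On placebo its groups overlapped in range (61.8 and 59.6 CPM against 84.5, 71.8 and 50.1 CPM).

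The structural myelin genes were not called. Of 17 tested members 0 were called in either direction (4 were lower at an unadjusted p under 0.05, and DESeq2 called 2 lower), the median log2 difference was -0.20 with PLX5622 and -0.58 on placebo, and 10 of the 17 were negative. Mbp, myelin basic protein (chromosome 18, 82554463 to 82585637), was at 7560 and 5329 CPM in control and 6039 and 4580 CPM in MSA PLX5622 libraries. Those ranges overlapped, and the difference was -0.27 ± 0.33 (adjusted p = 0.746). On placebo Mbp was at 7533 and 6249 CPM in controls and 5052, 3414 and 2619 CPM in MSA mice (-0.89 ± 0.29, adjusted p = 0.999). Mbp's interaction was 0.61 ± 0.44 and was not called. Mobp, another compact-myelin protein, was at 1820 and 1188 CPM in control against 1938 and 1205 CPM in MSA libraries (0.07 ± 0.41), and its ranges overlapped too. The sum over the 17 genes overlapped between groups, at 16203 and 11781 CPM in control and 13669 and 12193 CPM in MSA PLX5622 libraries.

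Some less abundant myelin genes had larger differences. Gjb1, connexin 32, a gap junction protein that links the layers of myelin, was at 33.8 and 25.3 CPM in control and 13.3 and 10.9 CPM in MSA libraries with PLX5622 (-1.29 ± 0.30, adjusted p = 0.25), and the placebo difference was -1.43. Mag, the adhesion molecule of the innermost myelin layer, was at 322 and 375 CPM against 165 and 209 CPM (-0.90 ± 0.31, adjusted p = 0.44). In the placebo groups Mag overlapped, with 335 and 455 CPM in controls and 206, 410 and 278 CPM in MSA mice. In 5 of 17 structural genes, among them Cldn11, Gjb1, Mog and Pmp22, the MSA libraries lay below the controls under both diets, against 2.34% of all genes.

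Levels between genes can be compared only per length, on the TPM scale of the second deposited table. On that scale the mean level in control PLX5622 striatum was 4353 TPM for Mbp, 750 TPM for Mobp, 60.4 TPM for Gsn, 27.2 TPM for Anln and 16.9 TPM for Klk6. In MSA PLX5622 striatum the means were 3357, 732, 16.2, 3.62 and 0.097 TPM in the same order. The 3 oligodendrocyte genes that were called thus stood far below Mbp and Mobp in abundance, which were not called.

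**Figure D3:**
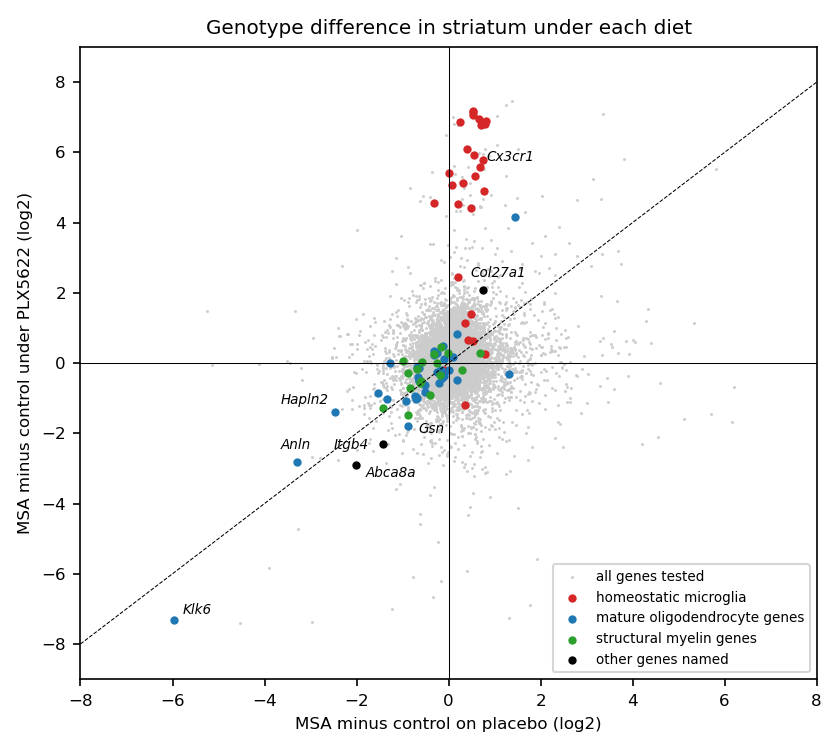
Log2 difference between MSA and control striatum on placebo (horizontal axis) and with PLX5622 (vertical axis), 1 point per gene tested; the dashed line marks equal differences. Klk6 and Anln lie far below 0 on both axes, and the homeostatic microglia genes lie high on the vertical axis, with a median of 5.22 against 0.51 on placebo.

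Earlier stages of the oligodendrocyte lineage were not called. Of 15 precursor genes 0 were called with a median of -0.10, of 16 genes of newly formed oligodendrocytes 0 with a median of -0.05, and of 18 lineage transcription factors 0 with a median of -0.09. At an unadjusted p under 0.05 these lists held 0, 1 and 3 genes. Pdgfra, the precursor growth factor receptor, was at 47.9 and 63 CPM in control and 25.9 and 44 CPM in MSA libraries (-0.66 ± 0.35, adjusted p = 0.476). Olig2, a transcription factor of the whole lineage, was at 76.5 and 76.4 CPM against 57.7 and 61.2 CPM (-0.36 ± 0.25, adjusted p = 0.568), and Myrf, which drives the myelin program, at 163 and 212 CPM against 159 and 149 CPM (-0.28 ± 0.27). Enpp6, a marker of newly forming oligodendrocytes, had the largest difference of these lists, at 28.2 and 14.9 CPM in control against 1.35 and 7.05 CPM in MSA libraries (-2.28 ± 0.53, adjusted p = 0.236). On placebo Enpp6 was at 24.4 and 27.2 CPM against 7.15, 8.16 and 7.7 CPM.

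Cholesterol synthesis genes, which supply the myelin membrane, had 0 of 22 called and a median of -0.36. Of the 22, 20 were negative and 6 were lower at an unadjusted p under 0.05. DESeq2 called 7 listed genes that are not on the structural myelin, mature oligodendrocyte or homeostatic microglia lists. Sqle, squalene epoxidase, was at 30.9 and 28.3 CPM in control against 8.11 and 18.2 CPM in MSA libraries (-1.15 ± 0.32, adjusted p = 0.429).

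Microglial transcripts made up most of the genes that were higher in MSA striatum. All 28 members of the homeostatic list passed the low-count filter. Of these 17 were called higher and 0 lower, and the median log2 difference was 5.22, or 4.48 when the 5 genes without any control count were set to their lower bound. Summed over the list, the level was 71.1 and 50 CPM in control PLX5622 libraries, 238 and 339 CPM in MSA PLX5622 libraries, 823 and 826 CPM in control placebo libraries, and 987 to 1326 CPM in MSA placebo libraries. The MSA PLX5622 libraries therefore lay between the control PLX5622 libraries and all placebo libraries. In bulk tissue fewer cells of a type and less RNA per cell cannot be told apart.

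The sequences before the start are shown for 4 of these genes, which stayed called in every alternative setting. They are RefSeq windows of 250 bases upstream on GRCm38.p6 (mm10), on the gene's strand, at chr4:130913066-130913315 (Laptm5, plus), chr4:136886201-136886450 (C1qb, minus), chr3:95526536-95526785 (Ctss, plus) and chr17:48346151-48346400 (Trem2, plus). Capitals mark GAGGAA on either strand (TTCCTC on the other), the core letters of PU.1-type sites, a motif chosen after the results were known.

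Laptm5: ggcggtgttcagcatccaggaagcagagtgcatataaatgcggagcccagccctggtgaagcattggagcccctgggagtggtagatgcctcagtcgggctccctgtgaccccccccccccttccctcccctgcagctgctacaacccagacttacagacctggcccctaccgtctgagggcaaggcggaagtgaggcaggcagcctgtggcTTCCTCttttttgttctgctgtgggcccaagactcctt
C1qb: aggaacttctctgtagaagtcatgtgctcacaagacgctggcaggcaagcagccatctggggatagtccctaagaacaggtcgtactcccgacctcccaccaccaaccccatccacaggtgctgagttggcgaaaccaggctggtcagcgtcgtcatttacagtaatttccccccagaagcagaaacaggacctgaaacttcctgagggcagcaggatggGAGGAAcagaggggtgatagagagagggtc
Ctss: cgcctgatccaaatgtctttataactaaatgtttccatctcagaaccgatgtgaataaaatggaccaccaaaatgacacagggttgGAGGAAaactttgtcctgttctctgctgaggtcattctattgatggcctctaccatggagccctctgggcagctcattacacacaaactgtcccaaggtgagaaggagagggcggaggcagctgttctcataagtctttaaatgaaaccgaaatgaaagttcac
Trem2: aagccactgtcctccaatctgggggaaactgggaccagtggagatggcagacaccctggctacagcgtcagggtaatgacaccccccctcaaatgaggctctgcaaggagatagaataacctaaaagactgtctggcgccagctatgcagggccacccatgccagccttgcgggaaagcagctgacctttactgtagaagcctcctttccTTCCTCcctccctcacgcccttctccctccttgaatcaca

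Each of the 4 windows held 1 match, which began 38 bases before the RefSeq start in Laptm5, 30 in C1qb, 164 in Ctss and 40 in Trem2. The RefSeq starts of Laptm5 and C1qb lie 18 and 23 bases from the start of the deposited transcripts. Windows with a match made up 22% of the tested genes with a window and 10 of the 19 homeostatic microglia genes with one. These 4 were picked for showing the match and its share among them is no result.

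Csf1r, the receptor that the inhibitor blocks (chromosome 18, 61105572 to 61131139, plus strand, NM_001037859), was at 0.73 and 0 CPM in control and at 13.1 and 38.9 CPM in MSA PLX5622 libraries. The MSA libraries stood well above both controls and below the placebo libraries, which ran from 94.3 to 140 CPM. The log2 difference was 6.11 ± 0.73 (adjusted p = 0.00558). Cx3cr1, the fractalkine receptor (chromosome 9, 120048683 to 120068296, minus strand), was at 0.522 and 0 CPM against 16.6 and 17.1 CPM (5.92 ± 0.51, adjusted p = 0.000299). Tmem119 (chromosome 5, 113793729 to 113800352, minus strand), a membrane protein that marks resident microglia, was at 0.313 and 0.213 CPM against 6.37 and 6.51 CPM (4.54 ± 0.39). The size of these differences rests on very few control counts. Without control PLX5622 library 1, which leaves a control at 0, the fitted log2 difference was 10.65 for Csf1r and 10.01 for Cx3cr1, and without control library 2 it was 5.17 and 5.00. Without MSA PLX5622 library 3 it was 5.11 for Csf1r. Leaving out control library 1 moved the fold of 15 of the 28 higher genes by over 1.5 times, 11 of them upward, and leaving out control library 2 moved 16, 5 of them upward. Without MSA PLX5622 library 3, 5 moved, all downward, and without MSA library 2, 0 moved.

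The complement C1q subunits, encoded side by side on chromosome 4, were all called higher. C1qa was at 0.417 and 0 CPM in control and 18 and 32.3 CPM in MSA PLX5622 libraries. C1qb, at 0.313 and 0 CPM against 18 and 22.7 CPM, was 131 times higher (95% counting interval 44.4 to 640; adjusted p = 0.000279). C1qc was at 0.626 and 0 CPM against 14.5 and 17.2 CPM. No other complement gene was called, so 3 of 14 tested members were (0.188% of all genes were called higher).

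Genes of lysosomes and immune signalling in microglia were called as well. Ctss, the lysosomal protease cathepsin S, was 152 times higher in MSA mice (counting interval 51.5 to 740), at 0.313 and 0 CPM against 16.4 and 29.3 CPM. Laptm5, a lysosomal membrane protein, was at 0.73 and 0.425 CPM against 10.4 and 14.8 CPM (4.42 ± 0.35). Trem2, a receptor for lipids and debris, was 63.5 times higher (17.1 to 533), and its adaptor Tyrobp 151 times higher (26.5 to 6035). P2ry12 was 37.8 times higher (12.5 to 188), at 0.104 and 0.213 CPM against 4.64 and 6.92 CPM. Bin2 and Fcer1g had no counts in either control library and were at least 11.1-fold and 14.1-fold higher, taking 3 counts per group as the floor. The other called members were Selplg, Ly86, Siglech and Gpr34.

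The 11 homeostatic genes that were not called included 9 with a positive difference. P2ry13 lay just outside the threshold (adjusted p = 0.0504), with no counts in either control library and 3.48 and 1.22 CPM in MSA mice. Just inside it were Gpr34 and Itgb2, both with an adjusted p of 0.0477. Lpcat2 (-1.19) and Sall1 (-0.20) were negative, and neither passed the test.

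A further 11 higher genes lie outside the homeostatic list, and 9 of them have known roles in macrophages or leukocytes: Mpeg1, a pore-forming protein of macrophages, the IgG receptor Fcgr3, the oxidase subunit Ncf1, the tetraspanin Cd53, the sialic acid receptor Cd33, the lysozyme Lyz2, the integrin Itgb2, the ARF regulator Cyth4 and the GTPase regulator Arhgap45. Lyz2 reads may be shared with its near copy Lyz1. Col27a1 was also among the 11.

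Among the 28 higher genes, 27 were higher in each library of sorted microglia labelled MBP29 het than in any placebo control striatum library, against 34.6% of all genes tested. The median ratio of the means was 101 over the 28, against 0.755 over all genes. The 5 lower genes were below every placebo control striatum library in these microglia, as were 51.2% of all genes. In MSA PLX5622 libraries 22 of the 28 were below each MSA placebo library, against 14.4% of all genes. Disease-associated microglia genes, which rise around plaques and damaged myelin, had 2 of 21 tested members called higher, against 0.188% of all genes. These 2, Trem2 and Tyrobp, are also on the homeostatic list and are counted among its 17. The median of the 21 was 0.21. At an unadjusted p under 0.05, 7 were higher and 1 was lower. In 12 of the 21 both MSA libraries lay above both controls (22.7% of all genes), and in 1 both lay below (20.8%). Clec7a, a defining member, was at 0.104 and 0 CPM in control against 1.35 and 3.66 CPM in MSA libraries and was not called (adjusted p = 0.33).

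Few markers of other myeloid and immune cells passed the low-count filter. Of the border-associated macrophage list 4 of 10 members passed the low-count filter and 0 were called (0 at an unadjusted p under 0.05; sums of 23 and 10.8 CPM in control and 20.5 and 9.63 CPM in MSA libraries). Of the monocyte and neutrophil list 1 of 11 members passed it, with sums of 2.09 and 2.76 CPM against 7.53 and 4.61 CPM, and 0 were called (1 at an unadjusted p under 0.05). Of the T, NK and B cell list 1 of 17 members passed it, Cd4, and 0 were called (0 at an unadjusted p under 0.05; log2 difference of Cd4 -0.52; sums of 116 and 145 CPM against 71.5 and 112 CPM). The part of these cells in the myeloid difference was not tested.

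Leaving out control PLX5622 library 1 or 2 reduced the count of 17 to 9 or 10, and leaving out MSA PLX5622 library 2 or 3 reduced it to 12 or 11. In the same comparison in other regions of the series, 26 of the 28 higher genes had MSA PLX5622 libraries above all control PLX5622 libraries in cortex (4.63% of all genes) and 28 of 28 in corpus callosum (17.2%). Of the 5 lower genes, 1 was below in cortex (1.96% of all genes) and 3 in corpus callosum (7.71%).

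**Figure D4:**
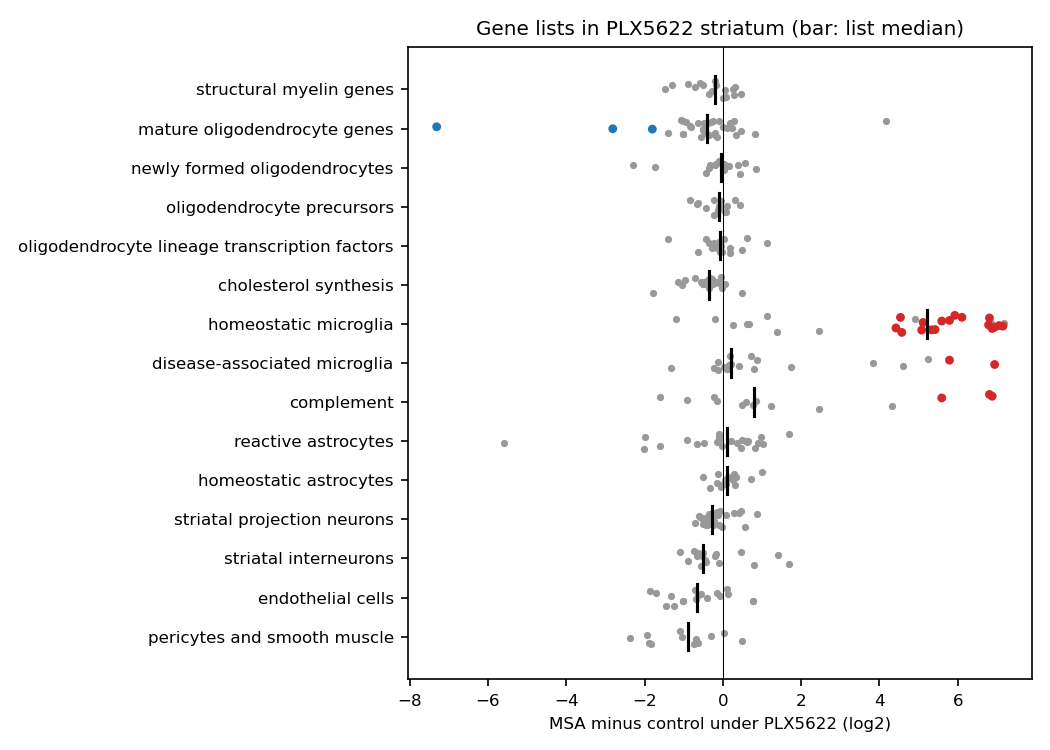
Log2 difference between MSA and control striatum with PLX5622 for the tested members of 15 gene lists (1 point per gene; red points were called higher, blue points called lower, grey points not called; black bars are list medians). The homeostatic microglia list stands at a median of 5.22, and the structural myelin list at -0.20 with no called member.

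Col27a1, a fibrillar collagen chain, is a higher gene that is not known as a macrophage gene. It was at 12 and 9.25 CPM in control and 49.8 and 40.8 CPM in MSA PLX5622 libraries (2.09 ± 0.25, adjusted p = 0.00344). Unlike the 22 genes above, it also exceeded the MSA placebo libraries, which ran from 28.1 to 37.1 CPM, and the control placebo libraries stood at 21.1 and 18.5 CPM. In the sorted microglia labelled MBP29 het its mean was 824 CPM.

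Of the lists for other cells 0 members were called in astrocytes, neurons, vessel cells, choroid plexus and ependyma. Endothelial genes had a median of -0.66 over 18 members and pericyte and smooth muscle genes a median of -0.89 over 12, against 0.51 and 0.48 on placebo. Their unadjusted calls were 3 and 3 lower and 2 and 0 higher. Endothelial genes summed to 415 and 618 CPM in control and 372 and 319 CPM in MSA PLX5622 libraries. Vtn, a pericyte marker in brain, was at 29.3 and 56.8 CPM against 14.9 and 9.36 CPM (-1.84 ± 0.43, adjusted p = 0.269). The striatal dissection check gave 25116 and 24153 CPM for projection neuron genes in control and 18908 and 23371 CPM in MSA PLX5622 libraries, and cortical glutamatergic genes gave 2306 and 2648 CPM against 3386 and 2941 CPM. MSA PLX5622 library 2 had the lowest striatal and the highest cortical sum of the 4. The placebo libraries varied as well. MSA placebo library 1 had the lowest striatal sum (15808 CPM) and the highest cortical sum (4810 CPM) of all striatum libraries. Choroid plexus genes summed to 4085 CPM in MSA placebo library 3, the highest of all striatum libraries. The part of tissue composition in the gene differences was not tested under either diet. C4b, a complement gene of reactive glia and the only gene called higher on placebo (0.00672% of genes; log2 1.56, adjusted p = 0.0413), was at 125 and 121 CPM in control and 205 and 165 CPM in MSA PLX5622 libraries (0.59 ± 0.22, adjusted p = 0.44).

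Depth and quality differed between the libraries compared. Counts assigned to genes were 9.58 and 9.4 M (1e+06 counts) in control and 5.18 and 7.37 M in MSA PLX5622 libraries. MSA PLX5622 library 2 stood apart in assignment, with 65.5% of its header total assigned against 74.3 to 76.9% in the other 8 striatum libraries. It had 9.88% of its counts in transcripts under 1500 bases, and MSA placebo library 1 had 9.04%. Transcripts over 5000 bases held 29.6% and 28.7% of the counts of these libraries. The median log2 difference with PLX5622 was 0.41 over 2433 genes with transcripts under 1500 bases, 0.04 over 5104 genes of 1500 to 3000 bases, -0.07 over 4520 genes of 3000 to 5000 bases and -0.14 over 2815 genes over 5000 bases. On placebo these medians ran from 0.07 to -0.02. With the assigned percentage as a covariate, 13 genes were called, 12 higher and 1 lower (Klk6). The part of transcript length and RNA quality in single genes was not tested.

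**Figure D5:**
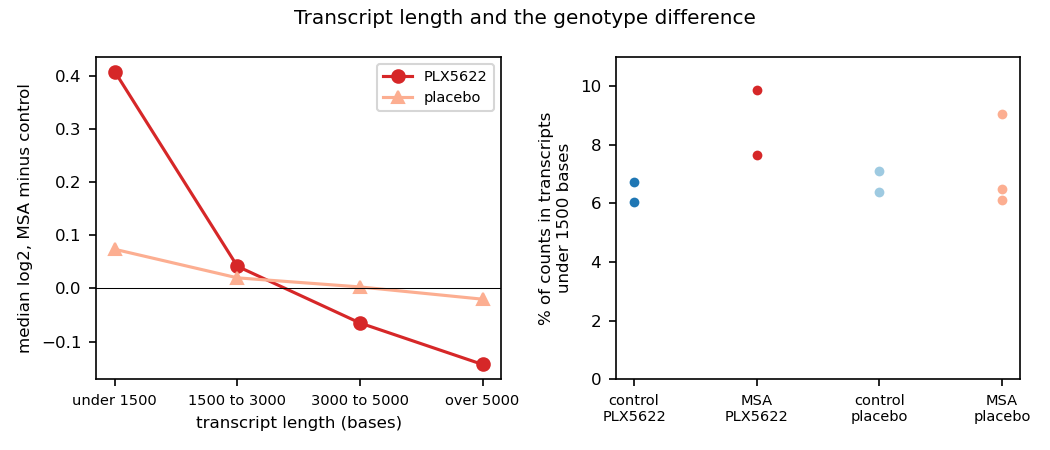
Left, the median log2 difference between MSA and control striatum by transcript length class, with PLX5622 (red circles) and on placebo (light triangles). Right, the share of each striatum library's counts in transcripts under 1500 bases (1 point per library), highest at 9.88% in MSA PLX5622 library 2.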

How the data were processed

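Raw read counts were deposited by the authors as whole numbers for 24940 genes with 1 RefSeq transcript each, and a second table of the same genes in TPM. The deposited TPM were used only to compare levels between genes. STAR, HOMER and DESeq2 with mm10 are named in the submitters' processing notes; their versions, the counting settings and strand use are not stated there, so reads of antisense partners may be mixed.

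Libraries were grouped by title. The 9 striatum libraries (5.18 to 11.3 M assigned counts) were fitted together in 4 groups with edgeR 4.0.16 in R 4.3.3: filterByExpr (minimum count 10), TMM scaling and the robust quasi-likelihood F test, 2-sided, with Benjamini-Hochberg adjustment over 14872 genes and a threshold of 0.05. Pairs within the compared groups were not copies (chi-square of 21.1 and 27.4 per degree of freedom). CPM are counts per 1e+06 assigned counts, and errors are standard errors of the fit. Where a group had 1 to 3 counts a ratio with a 95% counting interval is given, and where it had 0 a bound that takes 3 counts per group as the floor; both cover counting error only. An exact permutation test of 2 libraries against 2 cannot reach 0.05 and was not used.

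The 38 lists (671 genes, 3 absent from the table) and the genes described were chosen with earlier results of these data known. The text names Csf1r, Mbp, called genes of largest fold, members of oligodendrocyte lists, up to 4 members of smallest p in other lists, and interaction genes; some results are not reported here. Genes named outside that rule were chosen after their values were seen: Clec7a, Lpcat2, Sall1 and the higher genes of smaller fold. Alternatives were DESeq2 1.42.0, RLE size factors, no low-count filter, the 2 groups alone, all 30 bulk libraries, the replicate number as a block, the assigned share as a covariate, and each library left out.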

Additional observations from a re-analysis of the deposited data

Results flagged for a closer look

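The log2 genotype difference differed between diets in 13 of 14872 genes, by the interaction of genotype and diet in the edgeR fit. In all 13 the log2 MSA minus control difference was larger with PLX5622. This is a larger ratio to control levels near 0, and the gap in CPM was larger in some genes and smaller in others. For Csf1r the control and MSA means were 0.365 and 26 CPM with PLX5622 and 101 and 132 CPM on placebo. For Tmem119 they were 0.263 and 6.44 CPM with PLX5622 and 30.5 and 34.8 CPM on placebo. Of the 13 genes 11 are homeostatic microglia genes and the others are Mpeg1 and Ncf1. On the log2 scale the difference of differences was 3.94 for Laptm5, 4.33 for Tmem119, 6.06 for C1qb, 5.37 for Cx3cr1, 6.53 for Ctss, 6.02 for C1qa and 4.92 for C1qc. It was 4.89 for Selplg, 5.3 for Mpeg1, 5.01 for P2ry12, 5.03 for Trem2, 5.7 for Csf1r and 5.14 for Ncf1. These values rest on control PLX5622 libraries with at most 11 counts over the group, so their size depends on the prior count of the fit. The count of 13 was 2 without MSA PLX5622 library 3, 7 without control PLX5622 library 2, 8 without control placebo library 1 or MSA placebo library 2, and 21 without MSA placebo library 1.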

How the results depend on the processing

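RLE size factors gave the same 33 calls. For MSA against control with PLX5622 the calls (in all, higher, lower) were 87, 56 and 31 with DESeq2, 51, 39 and 12 without the low-count filter, 30, 23 and 7 for the 2 groups alone, 41, 32 and 9 with all 30 bulk libraries and 13, 12 and 1 with the assigned share as a covariate. Leaving out each library gave 15 to 42, 12 to 33 and 2 to 9. For placebo they were 31, 10 and 21 with DESeq2, 17, 4 and 13 without the filter, 0, 0 and 0 for the 2 groups alone, and 2, 0 and 2 with all bulk libraries, and leaving out each library gave ranges of 2 to 9, 0 to 2 and 2 to 7. For the interaction they were 22, 21 and 1 with DESeq2, 24, 23 and 1 without the filter, and 1 lower with all bulk libraries; leave-one-out ranges were 2 to 21, 2 to 18 and 0 to 3.

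Homeostatic microglia genes called higher were 10 with the covariate and 9 to 18 leaving out each library. Mature oligodendrocyte genes called lower were 6 with DESeq2, 1 with the covariate and 0 to 3 leaving out each library. Structural myelin genes called lower were 2 with DESeq2, 1 without the filter and 0 to 1 leaving out each library. Members of the other lists called were 7 with DESeq2, 2 without the filter, 2 for the 2 groups alone, 2 with all bulk libraries, 0 with the covariate and 0 to 2 leaving out each library. Of the 33 genes 9 kept their call in all 16 alternatives: C1qb, Laptm5, Cx3cr1, Tmem119, C1qa, Ctss, C1qc, Mpeg1 and Trem2. None of the 33 changed sign. Among named genes that were not called, Mobp turned to -0.58 with the covariate, and leaving out each library ran from -0.31 (without MSA PLX5622 library 2; -0.18 without control PLX5622 library 2) to 0.39. Sox10 ran from -0.13 (without control PLX5622 library 2) to 0.60. The cause was not tested.

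With the replicate number as a block the calls were 1908 (1130 higher, 778 lower) with PLX5622, 11 (4 and 7) on placebo and 44 (36 and 8) for the interaction; 8 mature oligodendrocyte genes, 3 structural myelin genes and 79 members of the other lists were then called, and Mbp turned to 0.16. The numbers were not shown to pair the libraries. Same-number correlations of deviations ran from -0.12 to 0.24 (median 0.10 over 10 pairs). Other-number correlations ran from -0.24 to 0.22 (median -0.05 over 20 pairs). Of 9 libraries 6 correlated best with their own number, and the compared groups share number 2 only. Whether the numbers mark a real pairing was not tested. With 2 libraries a side and 5.18 M counts in the smallest, genes under about 1 CPM rest on few counts.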
